A study of Mus musculus with 6 samples.

Results

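The LRRC8 and CLIC genes were examined in osteoclasts grown from the bone marrow of Ano1fl/fl mice and Ctsk-Cre;Ano1fl/fl mice. The array names 10 of them, Lrrc8a to Lrrc8e and Clic1, Clic3, Clic4, Clic5 and Clic6, out of 37074 gene names, and measures them with 16 of its 56605 transcript probes. All probes whose gene name was one of these 10 were taken, and this rule uses no measured value. The genes themselves were chosen with earlier results of these data known. Each group had 3 arrays, each from the osteoclasts of a separate mouse, induced with RANKL, the cytokine that drives osteoclast formation, for 5 days. The Ano1fl/fl mice carry floxed alleles of Ano1, the gene of the calcium-activated chloride channel anoctamin 1, without the recombinase, and served as littermate controls. The Ctsk-Cre;Ano1fl/fl mice carry the same floxed alleles and Cre driven by the cathepsin K promoter, so that recombination is limited to cells that have switched this promoter on and the cultures can hold cells that still have the gene. Mice used for such cultures were 6 to 8 weeks old, and in the study's general culture method M-CSF, the macrophage growth factor, was given at 30 ng/ml and RANKL at 50 ng/ml.

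LRRC8 proteins form the volume-regulated anion channel, which opens when a cell swells and lets chloride and small organic osmolytes out. LRRC8A is the obligatory subunit. It assembles with LRRC8B, LRRC8C, LRRC8D or LRRC8E, and the partner sets what the channel passes. LRRC8C and LRRC8E favour cyclic dinucleotides, the messengers sensed by STING, and LRRC8D favours taurine and other uncharged osmolytes. CLIC proteins are small proteins of the glutathione transferase fold that occur in soluble and membrane-bound forms. Several act on the actin cortex through ezrin, radixin and moesin, and a CLIC protein has been linked to acid secretion by osteoclasts, which need a chloride path beside the proton pump.

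The probe for Ano1 itself was not well above background on any of the 6 arrays, so the array gave no check of the deletion and directions below follow the labels of the arrays. Whether the labels of both groups are right could not be checked from these files, and were they exchanged, the sign of each difference below would turn. Between 33480 and 34951 of 59305 transcript spots were well above background on each array, and no LRRC8 or CLIC probe was saturated. All arrays came from 1 slide, on which Ano1fl/fl replicates 1 and 2 lay in the first row and the other 4 arrays in the second. All 10 osteoclast markers, the calcitonin receptor gene Calcr and Ctsk among them, were higher on the Ctsk-Cre;Ano1fl/fl arrays, and their summed signal was 143718 to 156451 on the Ano1fl/fl arrays against 502044 to 564784 on the Ctsk-Cre;Ano1fl/fl arrays. This direction is opposite to that given in the study's text for Acp5, Ctsk and Mmp9. Those were measured by quantitative PCR in osteoclasts and bone, not on these arrays. Calcr was well above background on only 2 of the 3 Ano1fl/fl arrays. The marker counts that follow can be read against all 20650 genes tested, of which 51.6% passed the limma test at an adjusted p of 0.05, 23.0% higher and 28.5% lower. Of 15 stromal and osteoblast markers 12 were higher and 2 lower, with a summed signal of 2908 to 4112 against 57966 to 96536. Of those higher, Lum and Pdgfra were well above background on no Ano1fl/fl array and Postn on only 1. They were tested because of their Ctsk-Cre;Ano1fl/fl signal. B cell markers summed to 37272 to 41705 against 81312 to 105743, with 5 higher and 1 lower of 6 tested and Igll1 below background on all arrays. Blnk, the brightest of them at log2 means of 14.96 and 15.88, weighs most in this sum. It rose least among the 5, by 0.91. T and NK cell markers summed to 1448 to 1691 against 3611 to 6746, with 4 higher and 1 lower of 7. Ncr1, among the higher, was well above background on only 2 of the 3 Ano1fl/fl arrays. Macrophage and monocyte markers summed to 483543 to 503124 against 420649 to 464210, with 1 higher and 5 lower of 9. Neutrophil markers summed to 320348 to 337257 against 212464 to 264865, with 1 higher and 7 lower of 10. Mast cell and basophil markers summed to 8201 to 10411 against 1421 to 4352, with 6 of 7 lower. Ms4a2, among the lower, was well above background on only 1 Ctsk-Cre;Ano1fl/fl array. Of 8 endothelial markers tested 1 was higher and 2 lower, with a summed signal of 6780 to 8345 against 3538 to 4099, and while Tek and Tie1 were below background on all arrays, Cdh5, Kdr, Esam, Pecam1, Vwf, Robo4 and Egfl7 were well above it on all 6. Of 6 epithelial markers tested 3 were higher and 2 lower, with a summed signal of 207 to 228 against 441 to 510. Among the called ones Krt7, Epcam and Krt18 were above background in 1 group alone, and Cdh1 on only 2 Ctsk-Cre;Ano1fl/fl arrays. Cldn4, Krt19 and Krt8 were below background on all arrays. Both erythroid markers tested were lower, with a summed signal of 5695 to 7386 against 2469 to 4076, and Alas2, Hbb-b1 and Klf1 were below background on all arrays. The part of any of these cell types in the LRRC8 and CLIC differences was not tested. In such mixed cultures, fewer cells of a type and less RNA per cell cannot be told apart.

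The promoters of Lrrc8b, Lrrc8c and Lrrc8d are shown because these genes lie close together on chromosome 5. Their called probes also moved in different directions. The promoter of Clic5 is shown because it carried the largest measured difference among the LRRC8 and CLIC probes. The sequences are RefSeq's for the GRCm38.p6 build, plus strand, from 250 bases before to 30 bases after the start of transcription, and Lrrc8d has a pair of starts. Capitals mark matches to TGANTCA (AP-1), TGGAAA (NFAT), GAGGAAG (PU.1) or CACGTG (E-box) on either strand. No match overlapped another.
Lrrc8b, chr5:105415525-105415804: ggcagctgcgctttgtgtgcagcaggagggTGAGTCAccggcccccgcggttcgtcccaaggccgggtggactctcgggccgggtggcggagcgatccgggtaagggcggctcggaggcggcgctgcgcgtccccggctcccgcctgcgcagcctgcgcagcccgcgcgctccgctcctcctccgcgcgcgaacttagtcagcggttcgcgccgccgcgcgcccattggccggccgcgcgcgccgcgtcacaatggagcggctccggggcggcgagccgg
Lrrc8c, chr5:105519221-105519500: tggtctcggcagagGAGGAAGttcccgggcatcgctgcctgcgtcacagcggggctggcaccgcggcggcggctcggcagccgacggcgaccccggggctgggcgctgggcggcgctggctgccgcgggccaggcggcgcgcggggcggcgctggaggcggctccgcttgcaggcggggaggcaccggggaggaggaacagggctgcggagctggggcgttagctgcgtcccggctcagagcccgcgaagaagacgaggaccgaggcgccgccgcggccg
Lrrc8d, first start, chr5:105699719-105699998: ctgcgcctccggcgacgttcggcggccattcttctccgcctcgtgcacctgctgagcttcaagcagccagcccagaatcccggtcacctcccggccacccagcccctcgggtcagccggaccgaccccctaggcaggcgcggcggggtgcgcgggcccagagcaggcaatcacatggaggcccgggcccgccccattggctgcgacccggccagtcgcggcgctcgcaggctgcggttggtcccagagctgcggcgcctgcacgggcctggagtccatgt
Lrrc8d, second start, chr5:105700560-105700839: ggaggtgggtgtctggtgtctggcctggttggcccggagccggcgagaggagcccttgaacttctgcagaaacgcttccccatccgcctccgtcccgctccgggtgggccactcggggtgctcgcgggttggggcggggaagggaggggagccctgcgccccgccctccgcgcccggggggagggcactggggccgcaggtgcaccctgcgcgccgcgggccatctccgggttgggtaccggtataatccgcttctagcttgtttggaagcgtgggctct
Clic5, chr17:44188322-44188601: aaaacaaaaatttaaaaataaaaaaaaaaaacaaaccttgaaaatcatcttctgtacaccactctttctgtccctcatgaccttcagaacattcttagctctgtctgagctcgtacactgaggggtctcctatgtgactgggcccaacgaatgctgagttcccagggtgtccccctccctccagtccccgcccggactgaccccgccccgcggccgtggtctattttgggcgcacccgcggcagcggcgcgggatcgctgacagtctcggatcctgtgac

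The Lrrc8b promoter held an AP-1 match at position -220 from its start, a motif found in 7.46% of 32851 promoters cut to the same length. The Lrrc8c promoter held a PU.1 match at position -236 from its start, against 12.2% of all promoters. Neither Lrrc8d promoter nor that of Clic5 held any of the 4 motifs in this window. Among the others, Clic1 held AP-1 and PU.1 matches, Clic4 a PU.1 match, Lrrc8a an E-box, which 6.79% of promoters hold, and Clic3 an NFAT match, which 20.3% hold, and Lrrc8e held none. CG dinucleotides were dense in the LRRC8 group, with 48 in Lrrc8b, 42 in Lrrc8c, 30 in Lrrc8a, 30 and 26 in Lrrc8d and 11 in Lrrc8e, against a median of 6 over all promoters. Clic4 had 27, Clic5 16, Clic1 13 and Clic3 5.

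Of the 16 probes 12, from 8 genes, were bright enough to be tested, that is, well above background throughout at least 1 group, and entered the limma fit. In this fit 8 of the 12 passed an adjusted p of 0.05 (Benjamini-Hochberg over all 31848 probes tested), where 52.4% of all probes did. They split into 6 probes higher on the Ctsk-Cre;Ano1fl/fl arrays and 2 lower, against 21.8% and 30.6% of all probes. Lrrc8e and the called Clic5 probe passed the filter on background through the Ctsk-Cre;Ano1fl/fl arrays, where they are high. The other Clic5 probe passed it through the Ano1fl/fl arrays alone. Among probes well above background on each of the 6 arrays the counts were 4 higher and 2 lower of 9. Over all such probes they were 5920 and 8767 of 28597. The median log2 difference over the 12 was 0.06, and over all probes -0.09. The LRRC8 group gave 4 higher and 2 lower of 7 probes and the CLIC group 2 higher and none lower of 5. At an unadjusted p under 0.05 limma had 1 CLIC probe lower, that of Clic1, as did the methods' t-test after adjustment. The groups of arrays did not overlap for 9 of the 12, as for 64.0% of all probes. With a change of more than 2-fold also required, 3 probes were higher, those of Clic5, Lrrc8e and Lrrc8d, and none lower. Of all probes 17.0% passed it, 8.91% higher and 8.11% lower. With probes below background taken at their lower limit Lrrc8e left this count.

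**Figure D1:**
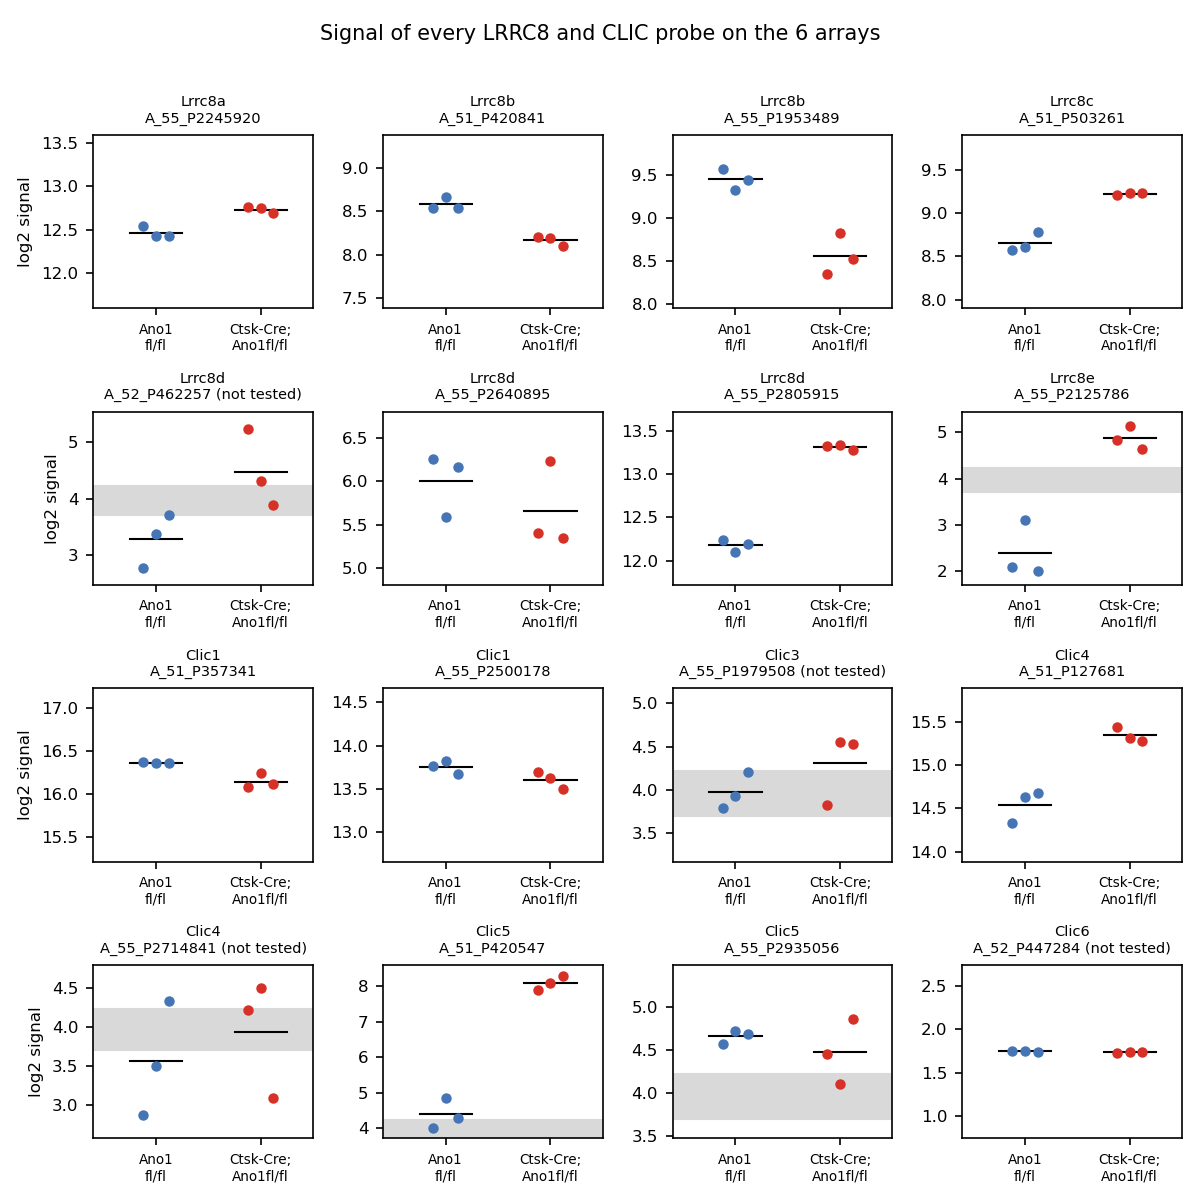
Normalized log2 signal of each of the 16 LRRC8 and CLIC probes on the 3 Ano1fl/fl arrays (blue) and the 3 Ctsk-Cre;Ano1fl/fl arrays (red), with group means as black lines and each panel on its own log2 scale. The grey band spans, over the 6 arrays, the dimmest signal that counted as above background, and the Ano1fl/fl points of Lrrc8e lie under it.

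Lrrc8a, the subunit without which the channel does not form, was slightly higher. Its probe (A_55_P2245920, chr2:30119177-30119236, mm9) read 12.54, 12.43 and 12.42 on the Ano1fl/fl arrays, against 12.76, 12.75 and 12.69 on the Ctsk-Cre;Ano1fl/fl arrays, in log2 normalized signal. The groups did not overlap, but the gap between them was 0.14. The log2 difference was 0.27 ± 0.08 (SE, limma, adjusted p = 0.0251). This call was lost when arrays were scaled to their 75th percentile instead (0.18, adjusted p = 0.108), and also without Ano1fl/fl replicate 2 (adjusted p = 0.0805) or 3 (0.0812) and without Ctsk-Cre;Ano1fl/fl replicate 1 (0.0649) or 2 (0.0659).

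Lrrc8b was lower by both of its probes. LRRC8B is the partner least tied to swelling-activated current and has been placed at the endoplasmic reticulum. The probe A_55_P1953489 (chr5:105915147-105915206, mm9) read 9.57, 9.32 and 9.44 on the Ano1fl/fl arrays, against 8.35, 8.82 and 8.52 on the Ctsk-Cre;Ano1fl/fl arrays. The probe A_51_P420841 (chr5:105916227-105916286) read 8.54, 8.67 and 8.54 against 8.21, 8.20 and 8.10. For both, all Ano1fl/fl arrays were above all Ctsk-Cre;Ano1fl/fl arrays. The log2 differences were -0.88 ± 0.14 (SE, limma, adjusted p = 0.00278) and -0.41 ± 0.08 (adjusted p = 0.0056). The calls were lost when only the second slide row was used, which leaves Ano1fl/fl with 1 array, with differences of -0.88 and -0.37 (adjusted p = 0.0603 and 0.103).

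Lrrc8c was higher. Its protein is a main partner of LRRC8A in the transfer of cyclic dinucleotides. The probe (A_51_P503261, chr5:106037492-106037551, mm9) read 8.57, 8.61 and 8.78 on the Ano1fl/fl arrays, against 9.21, 9.23 and 9.24 on the Ctsk-Cre;Ano1fl/fl arrays. The latter 3 had an SD of 0.01 and lay above all controls. The log2 difference was 0.57 ± 0.08 (SE, limma, adjusted p = 0.00193), a 1.48-fold change, and the call was lost in the second slide row alone (0.45, adjusted p = 0.057).

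Lrrc8d rose 2.19-fold by its brightest probe, and its other tested probe, which was much dimmer, did not follow. LRRC8D gives the channel its reach to taurine and to drugs such as cisplatin and blasticidin. The probe A_55_P2805915 (chr5:106243693-106243750, mm9) read 12.24, 12.10 and 12.19 on the Ano1fl/fl arrays, against 13.32, 13.34 and 13.28 on the Ctsk-Cre;Ano1fl/fl arrays. The lowest Ctsk-Cre;Ano1fl/fl array was 1.04 above the highest control. The log2 difference was 1.13 ± 0.08 (SE, limma, adjusted p = 9.42e-05), and the call held in all alternatives run, at 0.66 when the 3 Lrrc8d probes were averaged.

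The other tested Lrrc8d probe (A_55_P2640895, chr5:106163138-106163197), designed on another transcript, read 6.26, 5.59 and 6.16 against 5.40, 6.23 and 5.35. Here the groups overlapped, with a log2 difference of -0.34 (95% interval -1.04 to 0.35, limma, adjusted p = 0.353). The third probe (A_52_P462257, chr5:106261375-106261434) was well above background on no Ano1fl/fl array and on 2 Ctsk-Cre;Ano1fl/fl arrays and was not tested. It read 2.77, 3.37 and 3.71 against 5.25, 4.31 and 3.88. These groups did not overlap, with the Ctsk-Cre;Ano1fl/fl arrays higher, but values of both groups were not above background.

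Lrrc8e, the other partner that favours cyclic dinucleotides, was seen on the Ctsk-Cre;Ano1fl/fl arrays alone. Its probe (A_55_P2125786, chr8:4237411-4237470, mm9) read 4.84, 5.14 and 4.64 there, well above background on all 3. On the Ano1fl/fl arrays it read 2.09, 3.12 and 2.01, not well above background on any. Because the control level is a bound, Lrrc8e was at least 1.87-fold higher, with each control array set to its dimmest signal that still counted as above background. The measured means were 2.41 and 4.87 (limma, adjusted p = 0.00111), a p that compares with control values not above background, for a probe that was tested because of its Ctsk-Cre;Ano1fl/fl signal. The limit holds for the processed signal. The fitted log2 difference, itself no bound, was 0.45 with the normexp background correction, which adds an offset of 50, and 0.70 with the authors' table of median intensities, from which no background is subtracted, both below the limit of 0.91.

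Clic1, a cytosolic and membrane protein common in macrophages, was bright and did not pass the test. Its probe A_51_P357341 (chr17:35195587-35195646, mm9), printed in 10 spots on each array, read 16.37, 16.36 and 16.36 on the Ano1fl/fl arrays, against 16.08, 16.25 and 16.11 on the Ctsk-Cre;Ano1fl/fl arrays. The spots of an array varied by 1.05% to 2.11% (CV). The groups did not overlap, and the log2 difference was -0.22 (95% interval -0.41 to -0.03, limma, adjusted p = 0.0544). It passed the threshold in 8 of 19 alternatives, among them scaling to the 75th percentile (-0.34, adjusted p = 0.0292) and leaving out Ctsk-Cre;Ano1fl/fl replicate 2 (-0.27, adjusted p = 0.0389). The second Clic1 probe (A_55_P2500178), whose 60 bases spread over 2147 bases of the genome and so cross an intron, gave -0.14 (95% interval -0.35 to 0.07, adjusted p = 0.207).

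Clic4 rose. CLIC4 moves between the cytosol, the cell cortex and the nucleus and takes part in tube and vacuole formation in endothelium. The probe A_51_P127681 (chr4:134770416-134770475, mm9) read 14.33, 14.62 and 14.67 on the Ano1fl/fl arrays, against 15.44, 15.31 and 15.28 on the Ctsk-Cre;Ano1fl/fl arrays. All Ctsk-Cre;Ano1fl/fl arrays were above the controls, by 0.60 at the least. The log2 difference was 0.80 ± 0.12 (SE, limma, adjusted p = 0.00187), a 1.74-fold change. A second, dim probe (A_55_P2714841) read 2.87, 3.50 and 4.33 against 4.21, 4.49 and 3.08 and was not tested. When both probes were averaged as a gene value, the call was lost (0.58, adjusted p = 0.131).

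Clic5 showed the largest measured difference of the 16 probes. CLIC5 links the membrane to actin through ezrin and radixin and is needed in the hair bundles of the inner ear. The probe A_51_P420547 (chr17:44416979-44417038, mm9) read 4.01, 4.86 and 4.29 on the Ano1fl/fl arrays, 2 of them well above background, and 7.89, 8.10 and 8.29 on the Ctsk-Cre;Ano1fl/fl arrays. Before normalization these were processed signals of 15.0, 31.5 and 22.7 against 246, 224 and 295. The log2 difference was 3.70 ± 0.23 (SE, limma, adjusted p = 7.38e-05), a 13.0-fold change as measured. The probe was tested because of its Ctsk-Cre;Ano1fl/fl signal, and 1 control value in this difference is not above background. The size rests on a control level near background, and the difference was 2.03 with normexp and 2.50 with the table of median intensities.

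The second Clic5 probe (A_55_P2935056, chr17:44388521-44388580), designed on a cDNA clone (AK040195), read 4.56, 4.72 and 4.68 against 4.45, 4.10 and 4.85. It was well above background on all 3 Ano1fl/fl arrays and on 2 of the Ctsk-Cre;Ano1fl/fl arrays. Its groups overlapped, with a log2 difference of -0.19 (95% interval -0.64 to 0.27, limma, adjusted p = 0.437). Averaging both Clic5 probes gave 1.76.

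Clic3 and Clic6 gave no test. Clic3, known from secretory cells and integrin recycling, read 3.79, 3.93 and 4.21 on the Ano1fl/fl arrays, against 3.83, 4.55 and 4.53 on the Ctsk-Cre;Ano1fl/fl arrays, well above background on 2 arrays of each group. Clic6, a long CLIC protein of secretory epithelia, was below background on all 6 arrays, at 1.74 to 1.75 on the Ano1fl/fl and 1.73 to 1.74 on the Ctsk-Cre;Ano1fl/fl arrays.

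**Figure D2:**
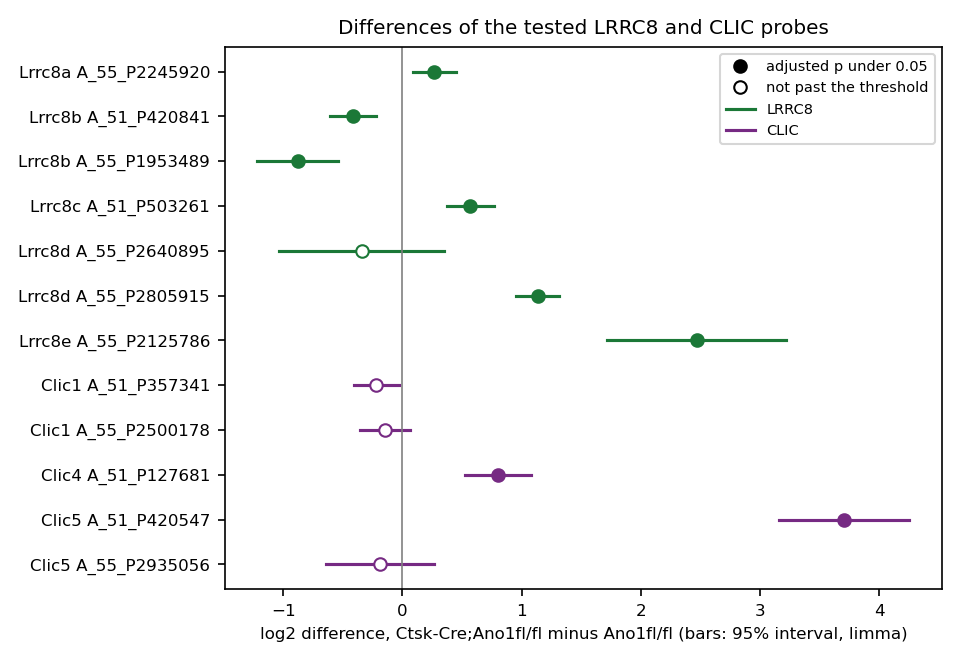
Log2 difference of each tested LRRC8 (green) and CLIC (purple) probe, Ctsk-Cre;Ano1fl/fl minus Ano1fl/fl, with its 95% interval from limma; filled points pass an adjusted p of 0.05. The differences run from -0.88 for Lrrc8b to 3.70 for Clic5, and the Lrrc8e point is the fitted value, for which the text gives a lower limit.

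Probes of the same gene are set against each other by their change, not their level. The test of unequal change was chosen after these values were seen, and its p-values were adjusted over 11198 probe pairs of all genes, of which 31.7% passed and 26.0% had differences of opposite sign. The brighter probe of a pair is that with the higher mean over the 6 arrays, and for Clic5 it is so through the Ctsk-Cre;Ano1fl/fl arrays alone. The brighter Clic5 probe changed by 3.89 log2 units more than the other (adjusted p = 0.000295) and the brighter Lrrc8d probe by 1.48 more (adjusted p = 0.00836). Each Clic5 probe was tested because of the group where it read higher. Both are near background in the other group, so the size and p of this pair rest partly on values not above background. The Lrrc8b probes differed by 0.46 in size (-0.46, adjusted p = 0.0644) and the Clic1 probes by 0.07 (-0.07, adjusted p = 0.595), neither passing. The median size over all pairs was 0.27. The first 30 bases of the Clic5 and Lrrc8d probes are shown, in the order of the array design and all in lower case. The reason is that a difference was called for the brighter probe of each gene and not for the other tested one. The third Lrrc8d probe was not tested.
Clic5, A_51_P420547: caagccttactcaatgtaccacgcctttga
Clic5, A_55_P2935056: aaggaactgagttcaaatccccagccctca
Lrrc8d, A_55_P2805915: gagtgtttacacattgcttgcctgcctaaa
Lrrc8d, A_55_P2640895: aggcaatttgaatggactgagcagttaatt
Lrrc8d, A_52_P462257: actattcagcttaagtgaagtcatcactga

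**Figure D3:**
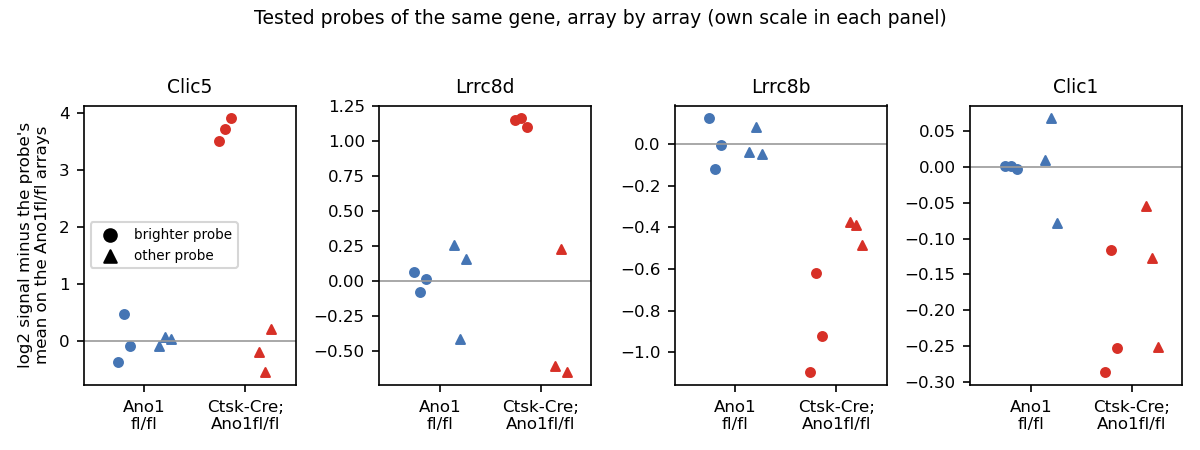
Change of the brighter (circles) and the other (triangles) tested probe of Clic5, Lrrc8d, Lrrc8b and Clic1 on each array, as log2 signal minus the probe's own mean on the Ano1fl/fl arrays (blue, Ano1fl/fl; red, Ctsk-Cre;Ano1fl/fl). The Clic5 and Lrrc8d probes part on the Ctsk-Cre;Ano1fl/fl arrays, while both Lrrc8b probes lie lower.

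Lrrc8b, Lrrc8c and Lrrc8d lie in this order on chromosome 5, and their probes span 346 kb (mm9). Across this stretch the brightest probe of each gene went from lower (Lrrc8b, -0.88) to higher (Lrrc8c, 0.57, and Lrrc8d, 1.13). In the RefSeq order Gbp10 and Gbp6 precede Lrrc8b, Gm42166 lies between Lrrc8c and Lrrc8d, and Zfp326 follows Lrrc8d. Of the 4 Zfp326 probes 3 were lower (-0.60, -0.33 and -0.27, limma, adjusted p = 0.0118, 0.0222 and 0.0195) and the fourth gave -0.21 (adjusted p = 0.316). Of all probes tested 30.6% were called lower. Among the guanylate-binding protein genes before Lrrc8b, Gbp9 was lower (-0.54, adjusted p = 0.0137), and Gbp8 (-0.79 and -1.21 by its 2 probes), Gbp4 (-0.47), Gbp11 (-0.82), Gbp10 (0.09) and Gbp6 (-0.22) did not pass.

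**Figure D4:**
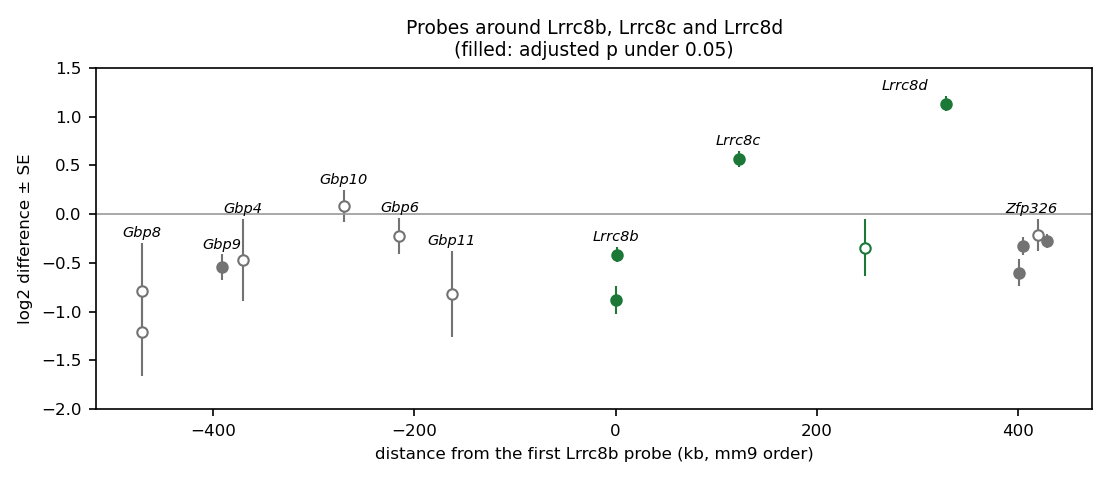
Log2 difference ± SE of the named tested probes within 500000 bases of the Lrrc8b, Lrrc8c and Lrrc8d probes (green), by distance from the first Lrrc8b probe in kb; grey points are neighbouring genes and filled points pass an adjusted p of 0.05. Lrrc8c and the brighter Lrrc8d probe are the filled points above 0, at 0.57 and 1.13.

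Among the other chloride channels and transporters, 13 of 26 genes tested were higher and 4 lower by their brightest probe, against 23.0% and 28.5% of all genes. The median log2 difference of this list was 0.27. The chloride-bicarbonate exchanger Slc4a3 rose by 3.34 ± 0.26 (SE, limma, adjusted p = 0.000175), with 2 of 3 Ano1fl/fl arrays well above background, and was tested because of its Ctsk-Cre;Ano1fl/fl signal. The potassium-chloride cotransporter Slc12a5 rose by 2.09 ± 0.14 (limma, adjusted p = 8.81e-05). Clcn7, the lysosomal chloride-proton exchanger of the osteoclast ruffled border, was also higher, at 1.17 ± 0.08 (adjusted p = 0.000118). Cftr, an epithelial chloride channel, was below background on the Ctsk-Cre;Ano1fl/fl arrays and at least 1.37-fold lower there (means 4.46 and 2.14, adjusted p = 0.00571). Like Lrrc8e, it was tested because of the group where it is high, and its p compares with values not above background. Slc12a9 (-0.84, adjusted p = 0.00108) and Ttyh3 (-0.49, adjusted p = 0.00791) were lower. Clcn7 was named after its values were seen.

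Genes of cell volume and osmolyte handling gave 4 higher and 6 lower of 18, against 23.0% and 28.5% of all genes, with a median of -0.13. Counted over all their probes, 12.8% were higher, against 21.8% of all probes. The water channel genes Aqp1 (3.67, limma, adjusted p = 0.000112) and Aqp9 (1.60, adjusted p = 0.000633) rose, as did Stk39, a kinase of the WNK pathway that phosphorylates chloride cotransporters (1.92, adjusted p = 0.00063). Slc5a3, the myo-inositol transporter, was lower (-1.60, adjusted p = 0.0152), as were the sorbitol-producing aldose reductase Akr1b3 (-0.57, adjusted p = 0.00307) and the swelling-sensitive cation channel Trpv4 (-0.49, adjusted p = 0.0382). Slc6a6, the taurine transporter, gave -0.16 (adjusted p = 0.292) beside the rise of Lrrc8d, and Nfat5, the osmotic response factor, -0.26 (adjusted p = 0.0612). Slc6a6 and Nfat5 were named after their values were seen.

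Known partners and relatives of the CLIC proteins gave 5 higher and 4 lower of 16, against 23.0% and 28.5% of all genes, with a median of 0.06. Myo6, the myosin that works with CLIC5 in hair bundles, rose by 2.20 (limma, adjusted p = 9.95e-05), and Src, the tyrosine kinase needed for the ruffled border, by 2.01 (adjusted p = 0.000174). Of the actin-membrane linkers, Ezr rose by 0.48 (adjusted p = 0.00871) and Msn by 0.45 (adjusted p = 0.00524, named after its values were seen), and Rdx fell by 0.67 (adjusted p = 0.00667). Glrx, a glutaredoxin, whose fold is close to that of part of the CLIC proteins (-0.41, adjusted p = 0.0233), and the scaffold gene Iqgap1 (-0.38, adjusted p = 0.00997) were lower.

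Genes of cyclic dinucleotide sensing, the cargo pathway of LRRC8C and LRRC8E, gave 2 higher and 4 lower of 8, against 23.0% and 28.5% of all genes, with a median of -0.24. The genes that make and bind the messenger were lower, with Mb21d1, which encodes cGAS, at -1.22 (limma, adjusted p = 7.47e-05) and Tmem173, which encodes STING, at -1.06 (adjusted p = 0.00218). Enpp1, which degrades the extracellular messenger, was higher by 1.20 (adjusted p = 0.000164), as was the kinase gene Tbk1 by 0.38 (adjusted p = 0.00996). Ifi204, a DNA sensor gene, was lower (-0.57, adjusted p = 0.00701).

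**Figure D5:**
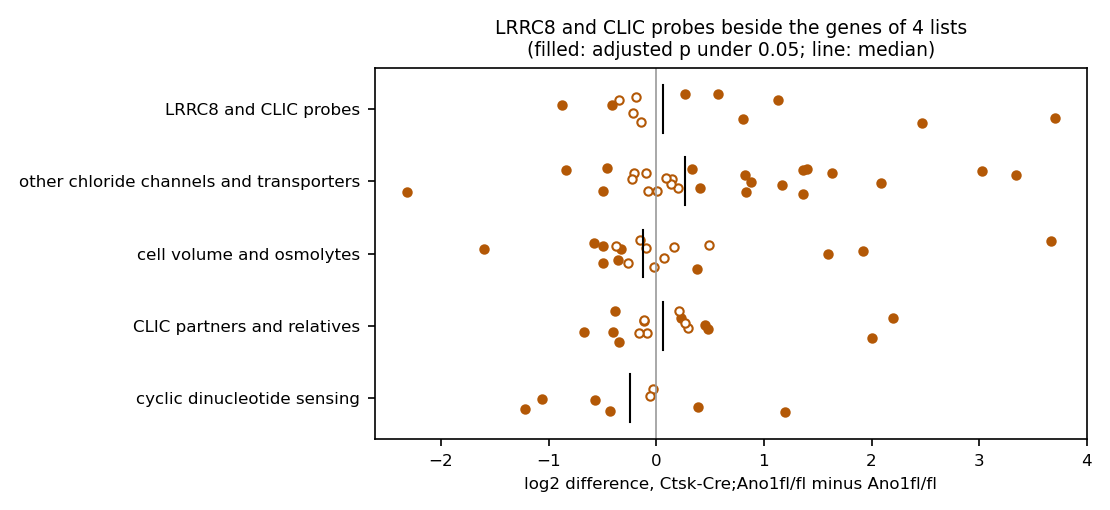
Log2 difference (Ctsk-Cre;Ano1fl/fl minus Ano1fl/fl) of the 12 tested LRRC8 and CLIC probes and of the tested genes of 4 lists, each gene by its brightest probe; points are spread vertically for sight, filled points pass an adjusted p of 0.05 and black lines are medians. The medians are 0.06 for the LRRC8 and CLIC probes and 0.27, -0.13, 0.06 and -0.24 for the lists from top to bottom, and below-background genes are drawn at their fitted value.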

How the data were processed

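RNA of 6 osteoclast cultures was hybridised to 1-colour Agilent mouse arrays and read with Agilent Feature Extraction 10.7.1.1, per the file headers. The authors deposited, for each spot, a processed signal intensity (background-subtracted) with flags, and a table equal to the median spot intensity. The methods name quantile normalization, which neither holds. Here log2 processed signals were quantile normalized after flagged outlier spots were dropped, spots of a probe were averaged, and probes well above background (in at least 0.5 of their spots) on all 3 arrays of a group were fitted with limma 3.58.1 in R 4.3.3, with no covariate. Scaling, background correction, filters, the replicate block, slide row, fold rules, probe choice and leaving out arrays were varied. The number of arrays limits the precision. Each probe's well-above-background flag decided where a lower limit replaced a fold change.

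All probes of the 10 genes were named, and in each list up to 3 called rises and 3 called falls with groups apart and the brighter group above background. Some named items are not reported here. Members and lists were chosen with earlier results of these data known. Coordinates of probes are those of the files (mm9). Promoters and their motif matches came from a RefSeq table (GRCm38.p6), which held promoters for 9 of the 10 genes and none for Clic6. The fit was tested on simulated data.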

Additional observations from a re-analysis of the deposited data

How the results depend on the processing

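Over 12 tested probes and their alternatives, 217 values kept their direction, 196 of them on the same side of the threshold. Alternatives that changed only the filter, the test or the replicate block, or kept the brightest probe of each gene, reuse the same differences. Their direction could not change, and they bear on the threshold alone. Counts of LRRC8 and CLIC probes higher ranged from 5 to 7 and lower from 2 to 3 when 1 array was left out, and for all probes from 5797 to 6317 and from 7955 to 8673. With slide row as a block, added after seeing the data, 5 members were higher and 1 lower, with 4700 and 5737 in all. In the second slide row alone, also added then, 4 members were higher and 0 lower by limma (2 lower at an unadjusted p under 0.05), and 3714 probes in all were higher and 4190 lower, with the lone Ano1fl/fl array assumed to vary like the others; with fewer arrays fewer calls can pass. Beyond 1.5-fold 4 members were higher and 1 lower, with 4403 probes higher and 5849 lower in all; beyond 2-fold 3 members were higher and 0 lower, with 2838 and 2584 in all; beyond 3-fold 2 were higher and 0 lower, with 1923 and 872 in all, Lrrc8e being counted here by its fitted value and not its limit of 1.87-fold; and beyond 2-fold by the lower limit 2 were higher and 0 lower, with 2647 and 2262 in all. Counted over all probes in place of the brightest, 12.8% of the volume and osmolyte list were higher, against 22.2% (all probes tested, 21.8%). The methods' t-test called 6 members higher and 3 lower, before and after Benjamini-Hochberg adjustment, and 7493 higher and 10190 lower of all probes before and 6262 and 8287 after it. Same-numbered samples did not deviate together, with correlations of -0.02, -0.08 and -0.09, so the numbers were not taken as pairs. With a replicate block, 5 members were higher and 2 lower, with 5988 and 8162 in all, and Lrrc8a lost its call (adjusted p = 0.0639). With slide row as a block Lrrc8a (adjusted p = 0.094) and the second Lrrc8b probe (0.0674) lost theirs, at differences of 0.31 and -0.37, and in the second row alone Lrrc8a (0.31, adjusted p = 0.131) did. The cause of these changes was not tested. Dim probes, those of Clic3, Clic5 and Lrrc8e among them, set the limit of what signal over background can show.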
